A study of Saccharomyces cerevisiae with 24 samples.

Results

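Glutamate and glutamine are the amino-group donors of the yeast cell, and the genes described here are those that make glutamate and glutamine, break glutamate down, and recover nitrogen from proline and from GABA (gamma-aminobutyrate, a non-protein amino acid made from glutamate). They are 10 of the 6307 open reading frames (ORFs) on a two-color spotted array of *Saccharomyces cerevisiae*, and were taken by name: 9 through the alias given to the spot and *UGA2* through its ORF name, YBR006W. Each had 1 spot per array. The study used 24 arrays in 12 pairs. All strains were BY4741 (*Mata ura3Δ0 leu2Δ0 his3Δ1 met15Δ0*) or deletions made in it with a *kanR* cassette, grown in rich medium (YPD) at 30°C and treated at an optical density of 0.2 unless stated. The deleted genes encode subunits of Mediator, the complex that links DNA-bound regulators to RNA polymerase II. *MED20* belongs to its head module, *MED16* to its tail, *MED31* to its middle and *cycC* (*SSN8* in the gene table) to its Cdk module.

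In 1 pair of arrays *med20Δ* cells with rapamycin (0.2 µg/ml, 1 hour) were set against *med20Δ* cells without it, and in 1 pair the same was done for wild-type. Rapamycin inhibits TOR, a kinase through which cells sense nitrogen. *med20Δ* was also set against wild-type in 7 conditions: untreated, rapamycin as above, chlorpromazine (250 mM in the labels, 250 µM in the methods, 1 hour), tunicamycin (2.5 µg/ml, 90 min), hydrogen peroxide (0.32 mM, 30 min), heat (cells at 29°C moved to 39°C for 20 min) and 48 hours of growth at 30°C from an optical density of 0.01, past the diauxic shift. The last 3 pairs set *med16Δ*, *med31Δ* and *cycCΔ* against wild-type after the rapamycin treatment above. The 2 arrays of a pair carry the same 2 groups with the Cy3 and Cy5 dyes exchanged. No source used here states that they hold separate cultures, so a pair was counted as 1 replicate and the calls below rest on no test. Counts from limma with each array as a sample are given only as an alternative in the closing section. Values are log2 ratios of the first-named group over the second, given for array 1, array 2 and their mean, and a gene was called higher or lower at 2-fold or more on the mean (a log2 ratio of 1 or more, or -1 or less). Within a pair, the distance between the arrays is the only error that can be read. The rapamycin comparisons allow a second reading by 2 routes, described below. For *PUT1* and *UGA1* the routes differed by more than the arrays of any pair involved, so a small distance can understate the error. Array 1 and array 2 differ in dye as well as in hybridization, so dye and array cannot be told apart within a pair.

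As background, yeast joins ammonium to 2-oxoglutarate with the NADP-dependent glutamate dehydrogenases Gdh1 and Gdh3, and adds a second amino group with glutamine synthetase, Gln1. Glutamate synthase, Glt1, returns glutamine and 2-oxoglutarate to glutamate, and the NAD-dependent dehydrogenase Gdh2 releases ammonium from it. Proline is oxidized to glutamate in mitochondria by Put1 and Put2, while GABA enters through the permease Uga4 and is converted to succinate by Uga1 and Uga2. Many genes for the use of poor nitrogen sources are under GATA factors, which TOR signaling restrains in rich medium. Transcript abundance alone was measured. *GDH1* and *GDH3* are paralogs of similar sequence, and the part of one transcript that binds the spot of the other was not tested.

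Over the whole series, between 5653 and 5929 genes had a ratio on both arrays of a pair, and Pearson's r across genes between array 1 and array 2 was 0.231 to 0.917, a description since genes are not replicates. The correlation was 0.25 for *med16Δ*, 0.239 for *med31Δ* and 0.231 for *cycCΔ*. The *MED20* spot was lower in *med20Δ* than in wild-type on both arrays in 7 of 7 conditions (means -0.89 to -0.26), although it stayed above background in all 14 *med20Δ* channels. *MED31* was lower in *med31Δ* (mean -1.05), and *MED16* was lower in *med16Δ* (mean -0.67), where its spot was above background on 1 array. *SSN8* was not above background in the *cycCΔ* channel of either array, and was above it in wild-type on both.

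Members differed in how well their spots could be read. Net intensity is foreground minus local background before normalization, and a spot was taken as above background when it was brighter than the 95th percentile of the 29 spots without a name, read in its own channel. Of 48 channels (2 for each array), *GDH1*, *GDH3*, *PUT2*, *UGA1*, *UGA2* and *GLT1* were above background in 48, *PUT1* in 47, *GLN1* in 32, *GDH2* in 27 and *UGA4* in 0. *GDH1* was the brightest member, with a median net intensity of 4063 over the 48 channels, and *UGA4* the dimmest at 3.00. Intensities of different spots also depend on the spotted DNA and are not a ranking of transcripts. *GLT1* carried a flag on 21 of 24 arrays and had a usable ratio on both arrays in none of the 12 comparisons, and *PUT1* was flagged on 1 *med31Δ* array. The meaning of the flag is not given in the sources used here.

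**Figure D1:**
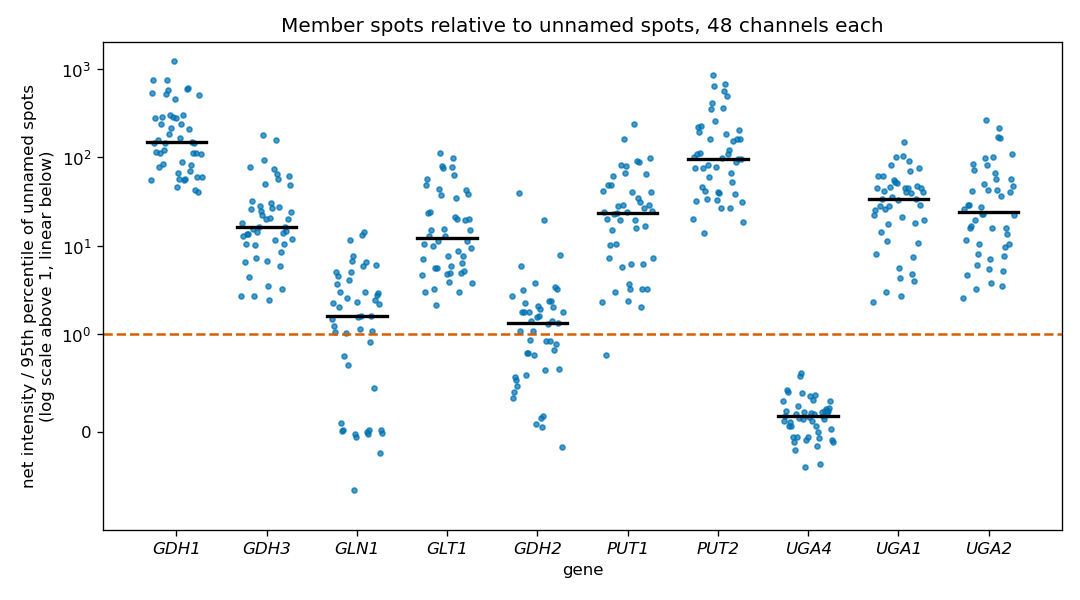
Net intensity of each member spot divided by the background level, the 95th percentile of spots without a name (vertical axis, log scale above 1 and linear below), with 48 points per gene for 24 arrays in 2 channels and a bar at the median. The dashed line marks background; *UGA4* lies below it in every channel, and *GLN1* and *GDH2* straddle it.

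Rapamycin raised 3 of the 9 measured members in *med20Δ* and 3 of 9 in wild-type: *GDH1*, *PUT1* and *UGA1* in each strain. Of all genes, 3.19% passed the line upward in *med20Δ* and 3.94% in wild-type. None was lower by 2-fold, against 5.57% of all genes in *med20Δ* and 6.2% in wild-type, although *GDH2* passed the line downward in both strains under 2 of the alternatives described with it. The median member ratio was 0.44 in *med20Δ* and 0.77 in wild-type, while the median of all genes was 0.00 in both. The 9 measured members, here and in the counts below, include *UGA4*, whose spot was at background in every channel. The 2 comparisons use different strains and arrays.

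*GDH1*, which assimilates ammonium into glutamate, had the largest ratio of any member. In *med20Δ* it was higher with rapamycin by 2.60 on array 1 and 3.27 on array 2, a mean of 2.93 or 7.64-fold. In wild-type the ratios were 2.13 and 1.88, a mean of 2.00 or 4.01-fold. The arrays of the 2 strains did not overlap. The net intensities behind them were 22638 and 11543 with rapamycin against 1763 and 2795 without it in *med20Δ*, and 6955 and 4068 with rapamycin against 1256 and 2045 without it in wild-type. The gap between the strains depended on the processing. *GDH1* had the larger ratio in *med20Δ* in each of 9 alternatives, by 1.39 on array 2 alone (3.27 in *med20Δ*, 1.88 in wild-type) and by 0.17 with the normalized ratios of the authors (3.17 in *med20Δ*, 2.99 in wild-type). All 9 reuse the same arrays, and leaving out the dimmest 25% of genes could not change so bright a spot.

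*GDH3*, the second ammonium-assimilating dehydrogenase, came close to the 2-fold line in both strains without reaching it. Its ratios with rapamycin were 1.14 and 0.84 in *med20Δ* (mean 0.99) and 0.95 and 0.96 in wild-type (mean 0.95). It passed the line in both strains with no background correction (1.06 in *med20Δ*, 1.04 in wild-type), with local background subtracted (1.48 in *med20Δ*, 1.30 in wild-type) and with the normalized ratios of the authors (1.68 in *med20Δ*, 1.44 in wild-type). With median centering it passed in *med20Δ* (1.05).

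The first enzyme of proline breakdown responded far more than the second. *PUT1* was higher with rapamycin by 1.56 and 1.89 in *med20Δ* (mean 1.72, 3.30-fold) and by 1.89 and 1.90 in wild-type (mean 1.89, 3.72-fold). *PUT2* was higher by 0.40 and 0.12 in *med20Δ* (mean 0.26) and by 0.43 and 0.34 in wild-type (mean 0.38). *PUT2* was thus above 0 on all of these arrays but under 1.5-fold in each strain.

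Among the GABA genes, *UGA1*, the GABA transaminase, was higher with rapamycin by 1.82 and 1.87 in *med20Δ* (mean 1.84, 3.59-fold) and by 1.00 and 1.25 in wild-type (mean 1.12, 2.18-fold). Its ratios in *med20Δ* lay above those in wild-type. *UGA2*, the succinate semialdehyde dehydrogenase that follows it, had the opposite order, with 0.56 and 0.32 in *med20Δ* (mean 0.44) and 0.72 and 0.82 in wild-type (mean 0.77). The spot for the permease *UGA4* had no signal above background with or without rapamycin, so its ratios (means 0.00 in *med20Δ* and -0.13 in wild-type) carry no information on its transcript.

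*GDH2*, which releases ammonium from glutamate, was the only readable member with a ratio below 0 on both arrays in both strains. Its ratios were -0.88 and -0.48 in *med20Δ* and -0.54 and -0.23 in wild-type. The rapamycin channel was at background on both arrays of each strain, so the difference is a bound, the mean of the bright channel over the lowest level that could be read: at least 1.43-fold lower with rapamycin in *med20Δ* and at least 1.15-fold lower in wild-type. With local background subtracted the ratio was -2.20 in *med20Δ* and -1.89 in wild-type. With the normalized ratios of the authors it was -1.77 in *med20Δ* and -1.55 in wild-type, so *GDH2* was lower by 2-fold or more in both. *GLN1* was near 0 in both (0.09 in *med20Δ*, with the arrays at -0.14 and 0.32, and -0.05 in wild-type). Its net intensities there were only 20 to 56.5. The offset of 50 added before the ratio draws such dim spots toward 0, so a response of its transcript may be understated. Over the alternatives its ratio lay between -0.14 and 0.32 in *med20Δ* and between -0.24 and 0.05 in wild-type.

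**Figure D2:**
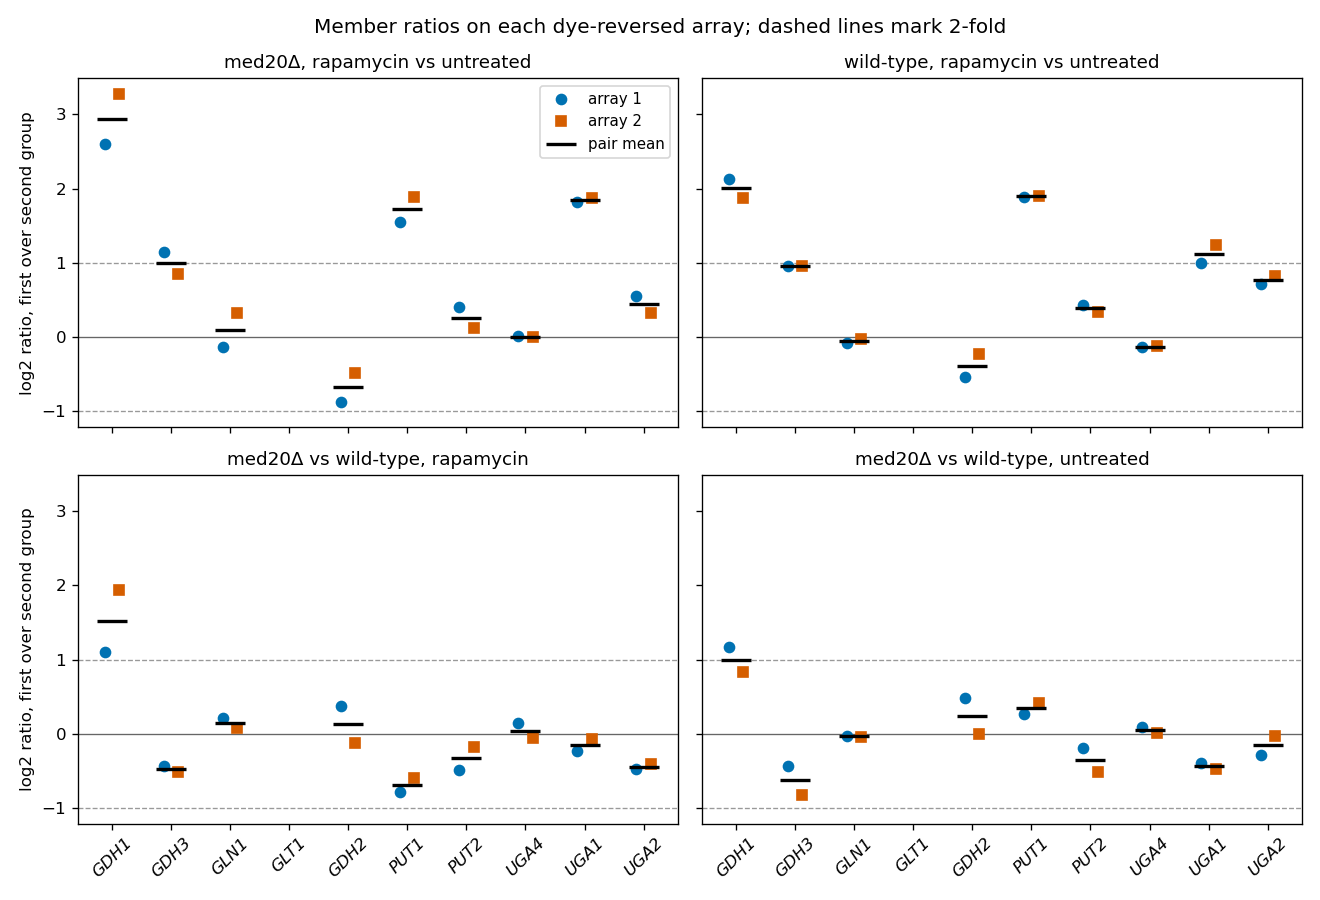
Log2 ratio (vertical axis) of each member on array 1 (circles) and array 2 (squares), with the pair mean as a bar, in the 4 comparisons of the rapamycin experiment; dashed lines mark 2-fold. *GDH1*, *PUT1* and *UGA1* lie above the upper line in both panels of rapamycin against untreated cells, *GDH1* lies above it in *med20Δ* against wild-type after rapamycin, and *GLT1* has no pair.

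After rapamycin, *GDH1* was higher in *med20Δ* than in wild-type and no other member differed by 2-fold. This is 1 of 9 measured members higher and 0 lower, where 2.11% of all genes were higher and 1.81% lower. *GDH1* gave 1.10 and 1.93 (mean 1.52, 2.86-fold), from net intensities of 4098 and 24248 in *med20Δ* against 3026 and 4251 in wild-type. With the normalized ratios of the authors its mean was 0.85, under 2-fold. *GDH2* passed 2-fold upward with local background subtracted (1.37) and with the normalized ratios of the authors (1.04), but its spot was at background in both channels of both arrays. The other dehydrogenase, *GDH3*, was lower in *med20Δ* on both arrays (-0.43 and -0.51, mean -0.47).

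Both proline genes were lower in *med20Δ* after rapamycin on both arrays. *PUT1* gave -0.78 and -0.60 (mean -0.69), and its *med20Δ* channel was at background on array 1, with a net intensity of 22.5 against 112 in wild-type. With local background subtracted, and with the normalized ratios of the authors, *PUT1* passed 2-fold at -1.16. *PUT2* gave -0.48 and -0.18 (mean -0.33). *UGA2* was lower too (-0.48 and -0.40, mean -0.44), and *UGA1* was lower by less (-0.23 and -0.06, mean -0.15).

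In untreated cells no member differed by 2-fold between *med20Δ* and wild-type, where 0.245% of all genes were higher and 0.683% lower. *GDH1* fell just short, with 1.17 and 0.83 and a mean of 0.997, and its mean passed the line with no background correction (1.02), with local background subtracted (1.06), with the normalized ratios of the authors (1.05) and with the normalization fitted without ribosomal protein genes (1.09). *GDH3* was lower in *med20Δ* (-0.43 and -0.82, mean -0.63), as were *UGA1* (-0.40 and -0.48, mean -0.44) and *PUT2* (-0.19 and -0.52, mean -0.35). *PUT1* was slightly higher in *med20Δ* (0.27 and 0.42, mean 0.34).

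The 4 comparisons form a closed square, so the ratio of *med20Δ* over wild-type after rapamycin can also be had by adding the response of *med20Δ* to the untreated difference and taking off the response of wild-type. For *GDH1* this sum was 1.93, against 1.52 measured directly. For *UGA1* it was 0.28 against -0.15, and for *PUT1* 0.17 against -0.69, so the direction of both depended on the route. The other 6 members differed between routes by -0.19 to 0.15. Across 5647 genes the quartiles of such differences were -0.18 and 0.25, and *GDH1* (0.41), *UGA1* (0.43) and *PUT1* (0.86) lay above the upper one. Read as the gap between the strains in their rapamycin response, *UGA1* was 0.72 from the arrays with and without rapamycin and 0.29 from the arrays of the 2 strains. *GDH1* was 0.93 by one and 0.52 by the other, and *PUT1* was -0.17 and -1.03.

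**Figure D3:**
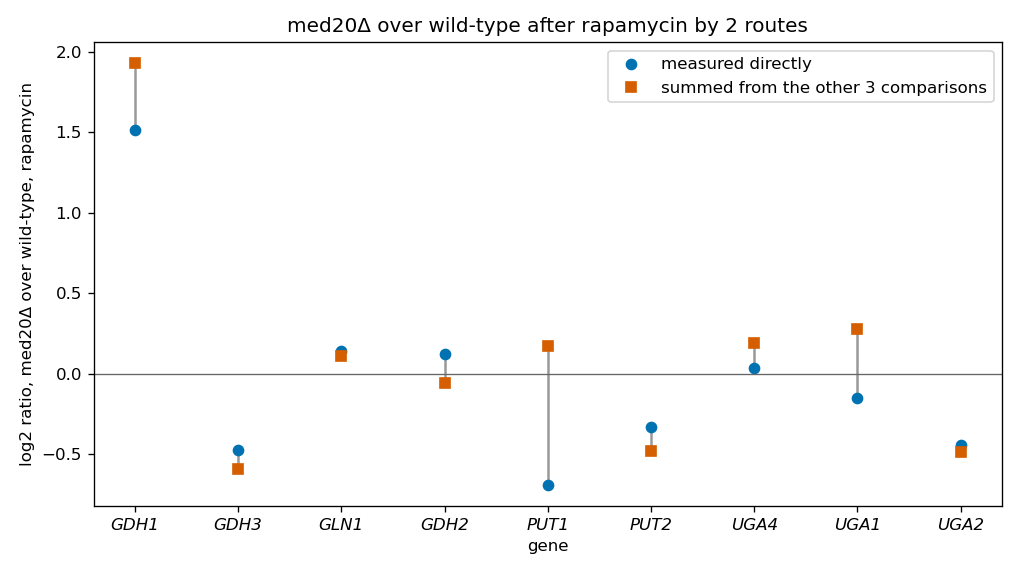
Log2 ratio of *med20Δ* over wild-type after rapamycin (vertical axis) for the 9 measured members, measured directly on its own pair of arrays (circles) or summed from the other 3 comparisons (squares). *GDH1* is well above 0 by both routes, at 1.52 and 1.93, and *PUT1* and *UGA1* change sign.

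In the other 5 conditions, 4 member ratios passed 2-fold between *med20Δ* and wild-type. With chlorpromazine *GDH1* was higher, 1 of 9 members, where 1.14% of all genes were higher and 2.16% lower. With tunicamycin *PUT1* was lower, where 1.86% were higher and 0.743% lower. With hydrogen peroxide no member passed, where 2.83% were higher and 1.54% lower. With heat *UGA1* was lower, where 0.823% were higher and 2.01% lower. After the diauxic shift *GDH1* was higher, where 0.892% were higher and 1.98% lower.

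*GDH1* was higher in *med20Δ* on both arrays in 7 of 7 conditions. Beside the untreated and rapamycin values above, it gave 1.29 and 0.84 with chlorpromazine (mean 1.06), 1.07 and 0.81 with tunicamycin (mean 0.94), and 1.04 and 0.69 with heat (mean 0.87). Past the diauxic shift it gave 1.54 and 1.09 (mean 1.31). The lowest mean was with hydrogen peroxide, 0.25, from 0.48 and 0.02. Over all genes that pair had the widest spread between arrays of the 12 comparisons (standard deviation of a single array, 0.415). The 7 comparisons share the 2 strains and no array. With the normalized ratios of the authors, *GDH1* was under 2-fold with chlorpromazine (0.84) and past it with heat (1.16).

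*GDH3* ran the other way, lower in *med20Δ* on both arrays in 7 of 7 conditions, with no mean past 2-fold. The lowest means were with hydrogen peroxide (-0.94 and -0.36, mean -0.65), in untreated cells (-0.63) and with heat (-0.68 and -0.51, mean -0.59). The nearest to 0 was past the diauxic shift (-0.25 and -0.09, mean -0.17). In hydrogen peroxide the distance between the arrays was as large as the differences between conditions.

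*PUT1* was lower in *med20Δ* on both arrays in 6 of the 7 conditions and higher in untreated cells. Tunicamycin gave the largest difference, -1.53 and -0.77 (mean -1.15, 2.22-fold lower), from net intensities of 1769 and 621 in *med20Δ* against 5794 and 1330 in wild-type. Array 2 alone was under 2-fold. Past the diauxic shift *PUT1* gave -0.23 and -0.89 (mean -0.56), and with heat -0.10 and -0.72 (mean -0.41). *PUT2* means lay between -0.35 and 0.34 in the 7 conditions, with heat the highest (0.03 and 0.66).

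*UGA1* was lower in *med20Δ* with heat, at -0.92 on array 1 and -1.44 on array 2 (mean -1.18, 2.27-fold lower). Its net intensities were 804 and 864 in *med20Δ* against 1267 and 2543 in wild-type. Array 1 alone was under 2-fold. With hydrogen peroxide it was higher in *med20Δ* on both arrays (0.51 and 0.44, mean 0.47). *UGA2* was below 0 on both arrays in 7 of 7 conditions, most of all past the diauxic shift (-1.22 and -0.77), where its mean of -0.99 fell just short of 2-fold. On array 2 it was close to 0 with chlorpromazine (-0.02), with hydrogen peroxide (-0.03) and in untreated cells (-0.03). The share of all genes with one sign throughout these conditions, as for *GDH1*, *GDH3* and *UGA2*, is not given here.

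**Figure D4:**
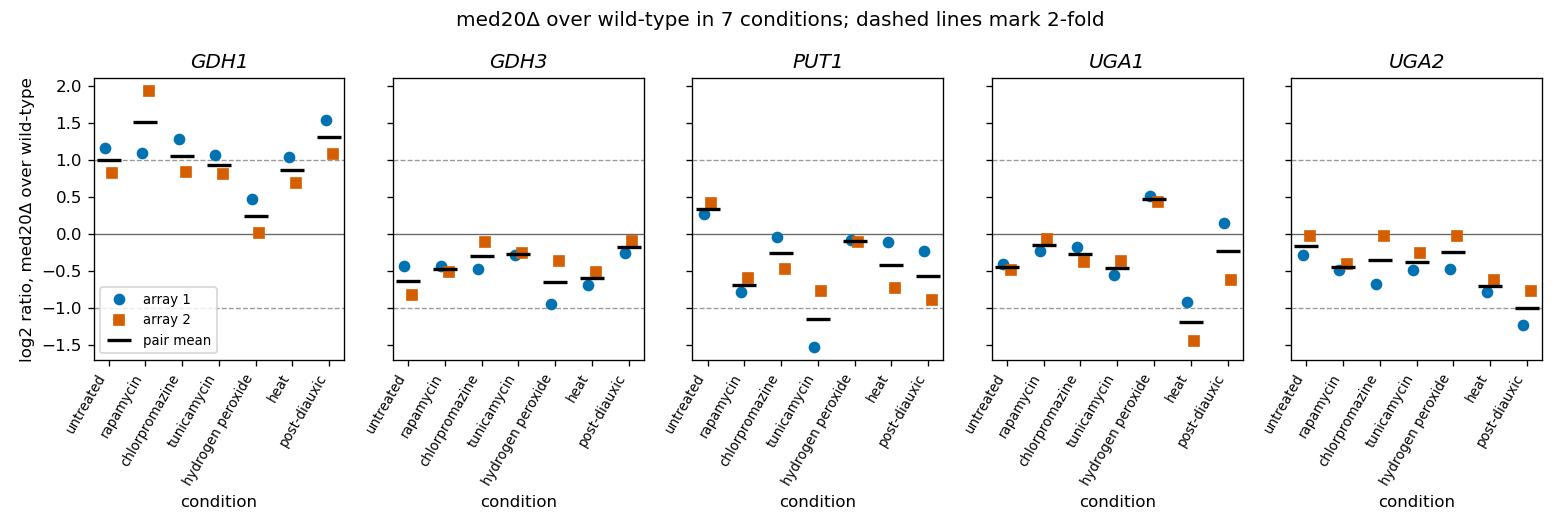
Log2 ratio of *med20Δ* over wild-type (vertical axis) for 5 members in the 7 conditions (horizontal axis), with array 1 as circles, array 2 as squares and the pair mean as a bar; dashed lines mark 2-fold. *GDH1* is above 0 and *GDH3* and *UGA2* are below 0 on every array, and *UGA1* is above 0 on both arrays with hydrogen peroxide.

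*GLN1* and *GDH2* gave little to compare in these conditions. *GLN1* means lay between -0.17 and 0.14 across the series, and its spot was at background in both channels of all 6 arrays of *med16Δ*, *med31Δ* and *cycCΔ*. The arrays of *GDH2* disagreed, and with hydrogen peroxide it gave 1.80 on array 1 and -0.71 on array 2. In 12 of 12 comparisons its ratio was higher on the array that had the first-named group in Cy3 (median difference 0.49), and 3.45% of 4986 genes measured throughout had one sign of this difference in all 12.

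After rapamycin no member differed by 2-fold from wild-type in *med16Δ* (0 of 9, background 0.236%), *med31Δ* (0 of 8, background 0.843%) or *cycCΔ* (0 of 9, background 0.641%). These counts include *UGA4* and *GLN1*, whose spots were at background in both channels of all these arrays. The arrays of a pair were far apart in several members. *GDH1* gave 0.17 and -0.12 in *med16Δ*, 0.07 and 0.70 in *med31Δ*, and -0.36 and 0.91 in *cycCΔ*. *PUT1* was lower in *med16Δ* (-0.22 and -0.44) and higher in *cycCΔ* (0.24 and 0.75), with 1 usable array in *med31Δ* (0.65). *UGA2* was lower in *med31Δ* (-0.38 and -0.26), and *GDH3* was lower in *med16Δ* (-0.28 and -0.27). Whether *med20Δ* differs from these strains in *GDH1* was not tested.

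**Figure D5:**
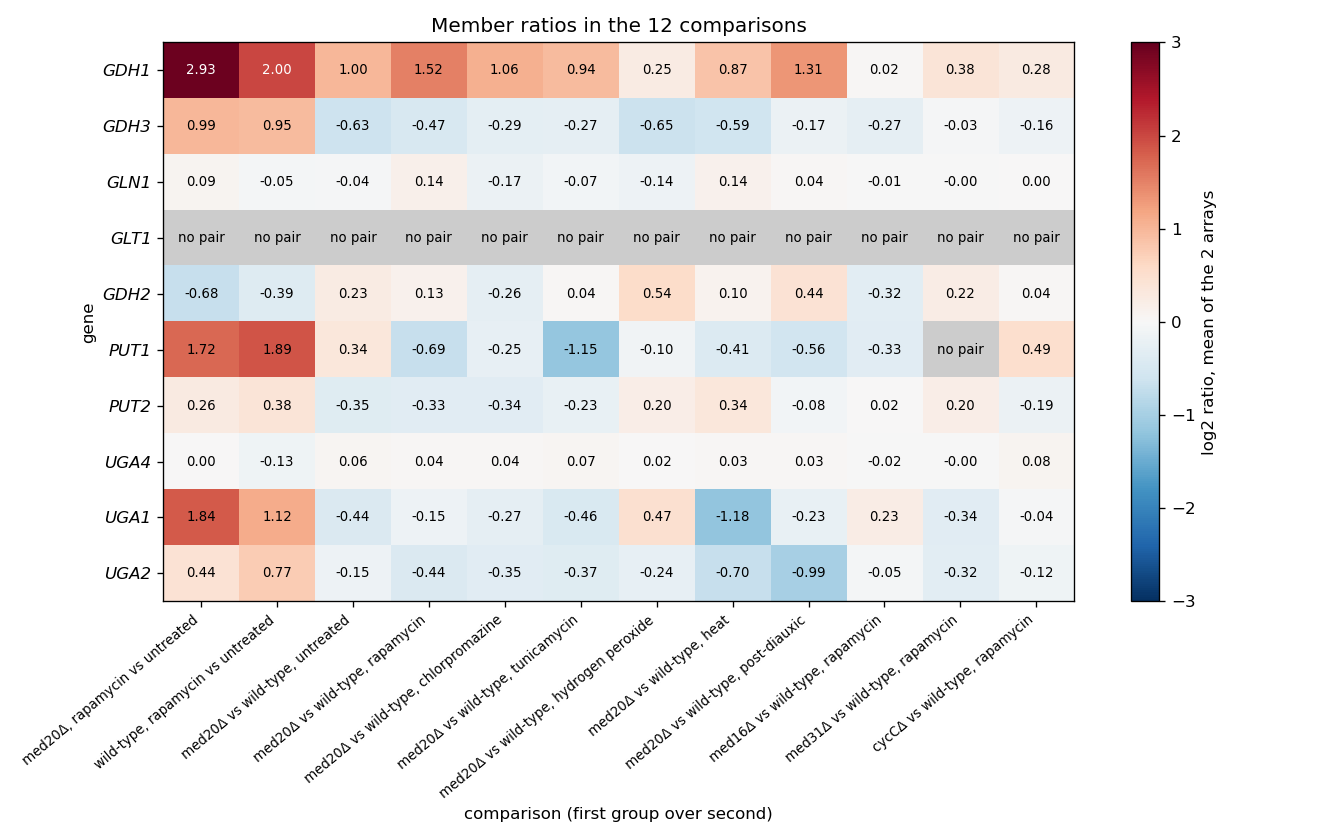
Mean log2 ratio of the 2 arrays for each member (rows) in the 12 comparisons (columns, first group over second), from blue (lower) to red (higher), with the value printed. The first 2 columns are rapamycin over untreated cells; grey cells had no pair, *UGA4* was at background throughout, and *GLN1* was at background in the last 3 columns.

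The neighbors of the pathway were taken as a list of 44 genes for uptake, regulation, supply of 2-oxoglutarate and use of glutamate and glutamine. With rapamycin 14 of 32 measured were higher and 1 lower in *med20Δ*, and 14 of 33 were higher and 1 lower in wild-type, with medians of 0.54 in *med20Δ* and 0.59 in wild-type. Of all genes, 3.19% were higher and 5.57% lower in *med20Δ*, and 3.94% higher and 6.2% lower in wild-type. The ammonium permease gene *MEP2* had the largest ratio (5.12 and 5.27 in *med20Δ*, 4.59 and 3.70 in wild-type), followed by *GAP1*, the general amino acid permease (mean 4.36 in *med20Δ*, 3.66 in wild-type). *GAD1*, which makes GABA from glutamate, was higher in both (1.55 in *med20Δ*, 1.06 in wild-type). So were the GATA factor genes *GAT1* (1.48 in *med20Δ*, 1.14 in wild-type) and *DAL80* (1.23 in *med20Δ*, 1.06 in wild-type). The untreated channel of *DAL80* was at background on both arrays of each strain, so the size of its ratios depends on that background. The gene that was lower in both, named after its values were seen, was *BAT1*, a branched-chain amino acid transaminase (-1.44 in *med20Δ*, -1.22 in wild-type).

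The list also held regulators of the member pathways. *PUT3*, the activator of *PUT1* and *PUT2*, gave -0.09 in *med20Δ* and 0.59 in wild-type with rapamycin. *UGA3*, the activator of the GABA genes, was at 0.01 in *med20Δ* and -0.04 in wild-type, and *DAL81*, which acts with it, at -0.74 in *med20Δ* and -0.12 in wild-type. The proline permease gene *PUT4* was higher in *med20Δ* (1.11 and 1.32, mean 1.21), against 0.04 and 0.59 (mean 0.31) in wild-type. For *GLN3* and *GZF3* neither strain had a pair for rapamycin against untreated cells.

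Between *med20Δ* and wild-type after rapamycin, 0 of 32 pathway genes were higher and 3 lower, beside 2.11% and 1.81% of all genes. Among those lower were *CPA1* (-2.32), a gene of arginine synthesis, and *IDP1*, a mitochondrial isocitrate dehydrogenase that makes 2-oxoglutarate (-1.23). On the same arrays *GDH1* was higher. In untreated cells 1 of 32 was higher, beside 0.245% of all genes, and it was the asparagine synthetase gene *ASN2* (1.11). With hydrogen peroxide 5 of 33 were higher and 1 lower, beside 2.83% and 1.54% of all genes. The largest was the aconitase gene *ACO1* (1.82), *GAD1* was also higher (1.41), and *BAT1* was the lower gene (-1.41). With heat 1 of 33 was higher, *GAP1* (1.16), and 1 lower, *BAT1* (-1.10), beside 0.823% and 2.01% of all genes. Past the diauxic shift 1 of 32 was higher, *MEP2* (1.37), and 1 lower, *GAD1* (-1.01), beside 0.892% and 1.98% of all genes. With chlorpromazine 0 of 32 passed in either direction, beside 1.14% of all genes higher and 2.16% lower. With tunicamycin it was also 0 of 32, beside 1.86% and 0.743%. After rapamycin 0 of 35 passed in *med16Δ*, beside 0.236% of all genes. In *med31Δ* and *cycCΔ* it was 0 of 36, beside 0.843% and 0.641%.

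For each member measured in all 12 comparisons, the gene of 4986 with the most similar pattern was found by Pearson's r over the 12 pair means. It was *DLD3* for *GDH1* (0.924), *CAN1* for *GDH3* (0.978), *YBR137W* for *UGA1* (0.97), *CSR2* for *UGA2* (0.936) and *RIM101* for *PUT2* (0.925). The closest genes to *GLN1* (*PRP4*, 0.825), *GDH2* (*ALO1*, 0.876) and *UGA4* (*YJL220W*, 0.838) follow spots at or near background. The 12 comparisons share strains and treatments, and with 12 points drawn from so many genes the r of the best is a description only. Within the members the highest r were 0.81 for *GDH3* with *UGA1* and 0.79 for *UGA1* with *UGA2*, and *GDH1* with *GDH3* was 0.72 although the signs of the 2 genes opposed each other in the 7 strain comparisons.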

How the data were processed

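Poly(A)+ RNA was labeled with Cy3 and Cy5 by the authors, who deposited 1 file per array with foreground and local background intensity in each channel and their own normalized log10 ratio of Cy5 over Cy3. The scanner, image software, genome build and normalization are not given in the sources used here. Groups, dyes and replicate numbers came from the labels. Each array has 6912 spots, of which 576 controls were left out, together with flagged spots, although the meaning of the flag is not given. Background was corrected by normexp (offset 50) on all spots and each array's ratios were loess-normalized (limma 3.58.1, R 4.3.3), then turned to the first-named group. A pair mean needed a ratio on both arrays. Further steps used Python 3.11.15, pandas 2.3.3 and numpy 2.4.6. The number of arrays limits the precision. Bounds took loess and Aquantile channel values. Locus tags of R64 were found for 5801 ORFs and not for 506; no coordinates are given because no source names a build. The steps were tested on simulated data for *med20Δ* against wild-type after rapamycin: of 200 genes changed by 3-fold among 5747, 144 were called at 2-fold, including all 96 of the brighter ones, with 0 false calls. The simulated noise was normal, with a standard deviation of 0.28 on each array for every gene and no dye effect particular to a gene. With noise that small few false calls could arise, so the 0 does not give their rate in the real arrays. The members and gene lists were chosen with earlier results of these data known. All members were named, and pathway genes past 2-fold on the mean and 1.5-fold on both arrays, at most 6 per comparison, beside regulators fixed by name. A gene that this rule would name is not reported here. The alternatives were other background corrections, centering on the median, loess outside ribosomal protein genes, the deposited ratios, other filters, 1 array of a pair, other thresholds, and limma with and without a replicate block.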

Additional observations from a re-analysis of the deposited data

Results flagged for a closer look

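Results below had both arrays of one comparison on one side of 0 and both arrays of other comparisons on the other side. The differences were not tested. *PUT1* in *med20Δ* over wild-type was 0.34 in untreated cells, against -1.15 to -0.10 in 5 other conditions. It was also below 0 on both arrays after rapamycin (mean -0.69), with its *med20Δ* channel at background on array 1. *PUT2* was 0.34 with heat, against -0.35 to -0.23 in 4 other conditions. *UGA1* was 0.47 with hydrogen peroxide, against -1.18 to -0.15 in 5 other conditions. After rapamycin *PUT1* was 0.49 in *cycCΔ* and -0.33 in *med16Δ*, beside the -0.69 in *med20Δ*. *PUT2* was 0.20 in *med31Δ*, against -0.33 to -0.19 in *med20Δ* and *cycCΔ*.

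*GLT1* entered no comparison, but on 21 of the 21 arrays where its spot was flagged it was above the unnamed spots in both channels. Taken in spite of the flags, its means were between -0.21 (wild-type, rapamycin over untreated) and 0.32 (*med20Δ* over wild-type, chlorpromazine).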

How the results depend on the processing

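Of 107 member ratios, the 11 at 2-fold or more kept their sign in every alternative that gave a value, and 73 of the 107 did. The count of members raised by rapamycin in *med20Δ* was 3, and 4 with no background correction, local background subtracted, median centering, the deposited ratios, 1.5-fold or array 1 alone, and 5 by limma's adjusted p, with the replicate block and without it. In wild-type it was 3, and 4 with no background correction or the deposited ratios, and 5 with local background subtracted, at 1.5-fold, and by limma with and without the block. The count lower in *med20Δ* than in wild-type after rapamycin was 0, and 1 with local background subtracted, with the deposited ratios and at 1.5-fold, 2 by limma without the block and 3 with the replicate block. In untreated cells the count of members different in either direction was 0, and 1 with no background correction, with local background subtracted, with loess outside ribosomal protein genes, with the deposited ratios and by limma with or without the block, 2 at 1.5-fold, and 0 to 1 on a single array. By limma this gene was *GDH3*, lower in *med20Δ*, and *GDH1* did not pass. In the other alternatives with a count of 1 it was *GDH1*, higher in *med20Δ*. In the 5 other conditions the count of member ratios different in either direction was 4, and 7 with local background subtracted, 1 with 2-fold on both arrays, 10 at 1.5-fold, 8 by limma with or without the block, and 2 to 7 on a single array. For *med16Δ*, *med31Δ* and *cycCΔ* this count was 0 in every alternative. The cause was not tested.

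In limma each array counts as a sample, so its p-values measure only the spread between arrays, technical or not. The deviations of arrays with the same number correlated at r = -0.555 to 0.808 over 66 pairs of comparisons, and 25 pairs were over 0.1, so the numbers were not taken as a pairing. Dim spots limit *GLN1*, *GDH2* and *UGA4*, which were among the dimmest 25% and were left out there.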

Other observations

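Beside *GDH2*, other members differed by dye. With the ratio on the array that had the first-named group in Cy3 less that on the other array, *PUT2* was above 0 in 1 of 12 comparisons (median -0.30) and *UGA2* in 1 of 12 (median -0.23), while *UGA1* was above 0 in 10 of 12 (median 0.22). *GDH1* was above 0 in 8 of 12 (median 0.32). Averaging the pair takes such a difference out of the mean, and it stays in the distance between the arrays.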
